A study of Homo sapiens with 6 samples.

Results

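The clustered protocadherins are the cell-surface cadherins encoded by the α, β and γ gene clusters on human chromosome 5. All gene symbols of the form PCDHA, PCDHAC, PCDHB, PCDHGA, PCDHGB or PCDHGC followed by a number were taken, which gave 55 of the 23340 gene symbols kept from the deposited tables. They comprised 13 α genes, 2 C-type α genes, 18 β genes, 12 γA genes, 7 γB genes and 3 C-type γ genes. RNA was measured by sequencing in 6 libraries from 3 human cell lines, 2 libraries a line. The first line was labelled HT-29, a colorectal adenocarcinoma line, grown in McCoy's 5A medium and treated with 200 U per ml of IFN-γ for 24 hours. The second was labelled MDA-MB-436, a breast adenocarcinoma line grown in L-15 medium without added CO2. The third was MCF10A, a non-tumorigenic mammary epithelial line grown in DMEM/F12 medium with horse serum, EGF, hydrocortisone, cholera toxin and insulin. No IFN-γ is recorded for MDA-MB-436 or MCF10A, and HT-29 without IFN-γ was not analysed here. Line, medium and treatment therefore cannot be told apart.

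Protocadherins of these clusters bind the same protein on a neighbouring cell and are best known from neurons, where different combinations of them on each cell are part of how a neurite tells itself from others. Each α and γ gene has a large variable exon with its own promoter, which is spliced to a short set of constant exons shared by the whole cluster, whereas each β gene is a single exon. The variable exon encodes the extracellular, membrane and proximal cytoplasmic parts, so promoter choice decides which protein is made. Most of these promoters carry a conserved element with a 4-base core, CGCT, and CTCF, a factor that organises chromatin loops, is known to bind there and at distal enhancers. The C-type genes at the ends of the α and γ clusters are known to be regulated differently from the rest.

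The deposited value for each gene is a normalised count, that is, a read count scaled by 1 factor per library, and whole reads could be recovered from it. The recovered totals were 18.4 and 50.2 M reads in the HT-29-labelled libraries, 16.7 and 56.4 M reads in the MDA-MB-436-labelled ones and 18.3 and 69.5 M reads in those of MCF10A. In each pair given below, the library labelled 25M reads comes first and the deeper one after it. A single read was worth 1.5 and 0.547, 2.06 and 0.616, and 1.87 and 0.491 normalised counts in these libraries. The labels describe the runs as duplicates at different depths and leave it unsaid whether they stem from separate cultures. A p-value here therefore measures only how far these libraries lie apart, and that spread may be technical.

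The labels of 2 lines went against the marker genes. KRT20, an intestinal keratin, stood at 0 and 0.547 in the HT-29-labelled libraries, at 29899.7 and 30879.7 in the MDA-MB-436-labelled ones and at 0 and 1.47 in MCF10A. VIL1, which encodes the brush-border protein villin, had 0 reads in the HT-29-labelled libraries, 4566 in the MDA-MB-436-labelled ones and 0 in MCF10A. VIM, which encodes the mesenchymal filament vimentin, stood at 36599 and 35267 in the HT-29-labelled libraries, 16.5 and 7.39 in the MDA-MB-436-labelled ones and 25901 and 26246 in MCF10A. CDH1, which encodes the epithelial adhesion protein E-cadherin, stood at 4.5 and 3.83 in the HT-29-labelled libraries, 22793 and 22477 in the MDA-MB-436-labelled ones and 5307 and 5324 in MCF10A. Intestinal and epithelial markers were thus abundant in the MDA-MB-436-labelled libraries and near 0 in the HT-29-labelled ones, as they would be had the 2 labels been exchanged. All groups below keep their labels, and every direction between them holds for the libraries as labelled. KRT14, a basal keratin, stood at 91.5 and 2.74 in the HT-29-labelled libraries, 84.4 and 0.616 in the MDA-MB-436-labelled ones and 225569.7 and 218996 in MCF10A, so that the 25M libraries of both carcinoma lines held more of it than the deeper ones. PCDHA12 had 0 reads over both MDA-MB-436-labelled libraries, against 109 and 120.3 normalised counts in MCF10A. At so low a level a trace of the size seen for KRT14 would not show, so this is no check of the members.

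The shared exons limit what a count of an α or γ gene can mean. In the GENCODE v29 annotation, used for lengths only, the coding part of the variable exon measured 2367 to 2532 bases in the α genes and 2439 to 2553 bases in the γA genes. The constant exons added 456 coding bases to each α gene and 372 to each γ gene, and β genes share none. How reads in the constant exons were assigned is not given in the sources used here. They were not added to every member, since 12 of 13 α genes had 0 reads in the MDA-MB-436-labelled libraries although PCDHAC2, which uses the same constant exons, had 273. The strand setting and the treatment of reads that match several near-identical members are not given either, so low counts of one member beside a high neighbour are uncertain. PCDHB17 and PCDHB18 are annotated as pseudogenes in RefSeq, as PCDHB17P and PCDHB18P.

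Promoter sequences show what the members share outside the measured counts. The RefSeq promoter table, on build GRCh38.p14, held windows for 47 of the 55 members, matched by symbol because the deposited counts were made on hg19. The stretches below are shown because the results turn on these members, with PCDHGA9 and PCDHGB4 added beside their neighbours PCDHGA10 and PCDHGB5. Each runs 40 bases 5′ to 3′, and capitals mark the CGCT core.
PCDHA4, chr5:140806965-140807004, plus strand: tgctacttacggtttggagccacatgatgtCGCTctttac
PCDHA12, chr5:140875230-140875269, plus strand: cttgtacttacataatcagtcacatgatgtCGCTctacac
PCDHB2, chr5:141094530-141094569, plus strand: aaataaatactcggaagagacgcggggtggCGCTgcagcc
PCDHB13, chr5:141213851-141213890, plus strand: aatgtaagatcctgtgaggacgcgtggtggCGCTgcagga
PCDHB15, chr5:141245300-141245339, plus strand: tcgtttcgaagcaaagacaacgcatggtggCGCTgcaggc
PCDHGA9, chr5:141402700-141402739, plus strand: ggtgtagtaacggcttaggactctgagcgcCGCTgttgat
PCDHGA10, chr5:141412917-141412956, plus strand: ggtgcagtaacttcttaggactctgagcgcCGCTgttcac
PCDHGB4, chr5:141387603-141387642, plus strand: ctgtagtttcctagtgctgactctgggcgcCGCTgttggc
PCDHGB5, chr5:141397849-141397888, plus strand: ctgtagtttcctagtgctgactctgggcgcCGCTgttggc
PCDHGC3, chr5:141475866-141475905, plus strand: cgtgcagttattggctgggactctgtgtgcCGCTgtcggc

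The core was found in the sense direction in the 100 bases before the annotated start in 44 of the 47 members (93.6%), against 8781 of all 27305 genes with a promoter in the table (32.2%). The core was the letters CGCT. On both strands and over the whole 300-base window the shares were 97.9% of members and 71.9% of all genes. The median core lay 61 bases before the start. Among the 20 bases from 12 before the core to 4 after it, α stretches matched the others of their family at a median 83.6% of positions, β stretches at 82.9%, γA at 81% and γB at 75.8%. C-type stretches were set only against the other C-type stretches of both clusters, and matched at a median 50.0% for the α and 56.7% for the γ genes. They were not set against the other α or γ stretches, so these values do not say how far they differ from those. Where a window held several cores, the one most like the rest of its family was kept, which raises these values. The 9-base string GGTGGCGCT, which contains the core and was chosen after the sequences were seen, stood in 13 of 14 β promoters, in 0 of the other members and in 102 of all 27305 genes (0.374%), searched in the sense direction only. PCDHB1 was the β promoter without it.

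**Figure D1:**
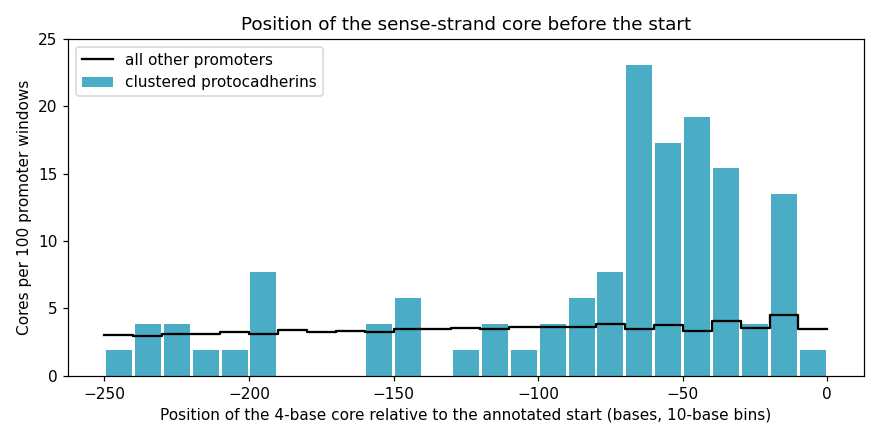
Position of the CGCT core in the sense direction relative to the annotated start, in 10-base bins, as cores per 100 promoter windows, for windows of clustered protocadherins (bars) and of all other genes (line). From position -70 to -31 the members have 15.4 to 23.1 cores per 100 windows in each bin, against 3.36 to 4.08 in other genes.

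A separate letter pattern for CTCF sites was searched on both strands over the whole 300-base window. It was found in 1 of 47 members (2.13%), a β gene, against 1531 of all 27305 genes (5.61%). The members thus did not exceed all genes for this pattern, unlike for the core. A match to such letters is a description of the sequence and not evidence of a bound factor, and a missing match is not evidence of an unbound one. Among the printed stretches, some members that share letters around the CGCT core had unlike counts. A relation between these letters and the count was not tested. PCDHGB4 and PCDHGB5 have the same 40 bases, yet in the HT-29-labelled libraries PCDHGB4 stood at 4.5 and 0.547 and PCDHGB5 at 384 and 384. PCDHB2 and PCDHB15 share the β string, and in the MDA-MB-436-labelled libraries PCDHB2 stood at 0 and 0.616 and PCDHB15 at 39.1 and 37.

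The lines differed in how much of the clusters they transcribed, and the HT-29-labelled libraries had the highest summed counts. Summed over the 55 members, the normalised counts were 2939 and 2752 in the HT-29-labelled libraries, 741 and 727 in the MDA-MB-436-labelled ones and 1537 and 1581 in MCF10A. Members with 0 reads in both libraries of a line numbered 1 in the HT-29-labelled libraries, 18 in the MDA-MB-436-labelled ones and 5 in MCF10A. Members with at least 10 normalised counts in both libraries numbered 25, 12 and 11 in the same order of lines, and those with at least 100 numbered 7, 2 and 3. In bulk RNA, a gene transcribed in fewer cells and a gene with less RNA per cell cannot be told apart, so these numbers do not say how many members a single cell used.

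**Figure D2:**
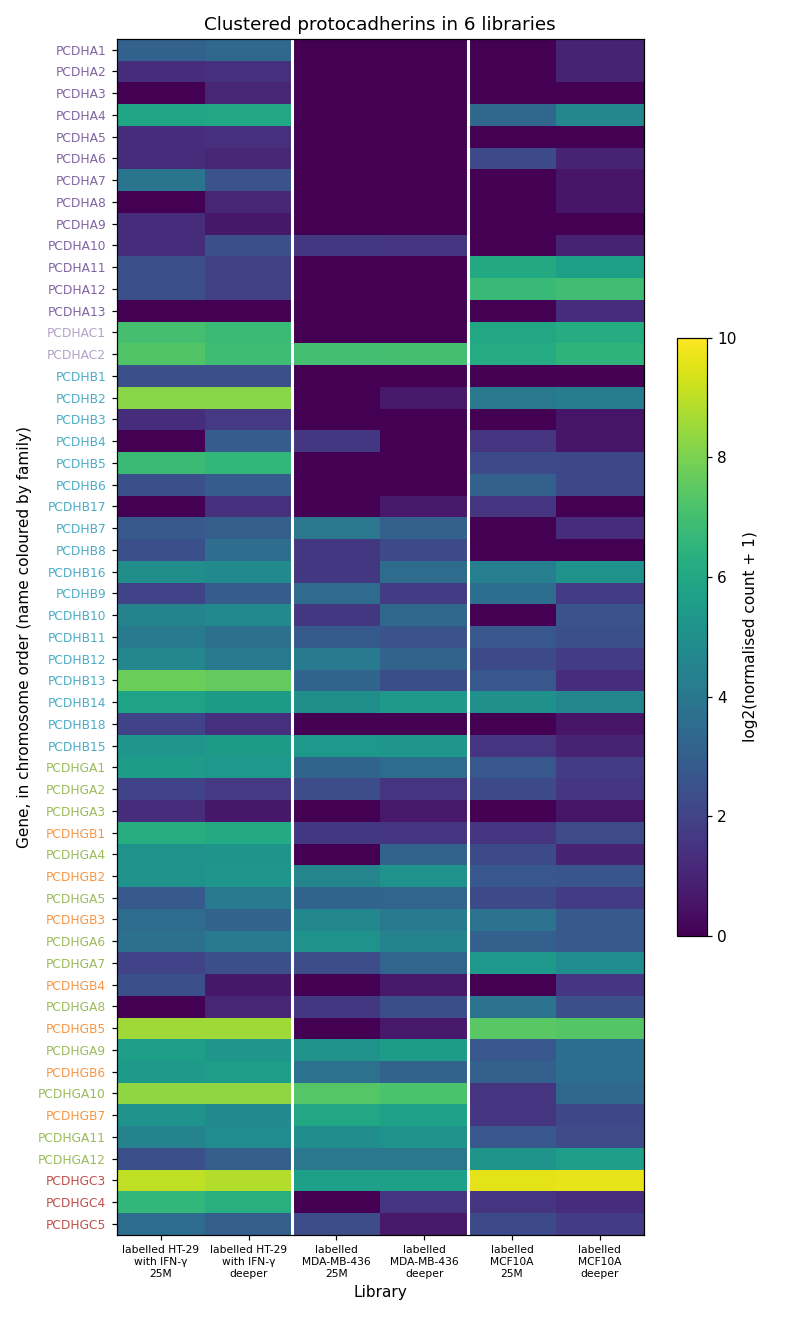
Normalised counts of all 55 clustered protocadherins, as log2(normalised count + 1), with genes in chromosome order down the page and 6 libraries across, ordered as labelled HT-29 with IFN-γ, labelled MDA-MB-436 and MCF10A. The paired libraries of a line look alike, the α genes are dark in the MDA-MB-436-labelled libraries, and PCDHGC3 is the brightest row in MCF10A.

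The order of the members was nearly the same in both libraries of a line and differed between lines. Spearman's rho across the 55 members was 0.948 between the paired HT-29-labelled libraries, 0.899 between the MDA-MB-436-labelled ones and 0.862 between those of MCF10A. Between lines it was 0.401 to 0.538 for HT-29-labelled libraries against MDA-MB-436, 0.478 to 0.604 for HT-29 against MCF10A and 0.345 to 0.466 for MDA-MB-436 against MCF10A. These are descriptions over members that share libraries and clusters, and the many low members add counting noise.

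Levels were put on 1 scale by dividing the mean normalised count by the member's own coding length in kb. In the HT-29-labelled libraries the order began with PCDHGC3 at 190.3 per kb, PCDHGB5 at 157, PCDHGA10 at 127, PCDHB2 at 126 and PCDHB13 at 85.2 per kb. The libraries of each of these neighbours did not overlap with those of the next, but PCDHGA10 and PCDHB2 were hardly apart. The deeper library stood at 125.96 per kb for PCDHGA10, and the 25M one at 125.95 per kb for PCDHB2. The deposited columns imply other lengths, 3582.5 bases for PCDHGA10 and 2727 for PCDHB2. The order between families therefore depends on the length used. PCDHAC2, PCDHAC1 and PCDHB5 followed at 51.9, 49.2 and 43.8 per kb. PCDHAC2 overlapped with PCDHAC1, and PCDHAC1 with PCDHB5. The 5 highest members together held 59.6% and 60.3% of the summed count in these libraries, so the sum was spread over several families.

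The MDA-MB-436-labelled libraries began with PCDHGA10 at 60.4 per kb, PCDHAC2 at 48.6, PCDHGB7 at 23.5 and PCDHGC3 at 19.1 per kb, each separated from the next. From PCDHB15 at 16.1 per kb to PCDHGA6 at 11 per kb each member overlapped with the next. PCDHGA10 alone made up 22.2% and 19.7% of the sum. MCF10A was dominated by 1 gene. PCDHGC3 stood at 305 per kb and made up 50.5% and 50.7% of the summed count there, and PCDHGB5 at 67.9 and PCDHA12 at 48.2 per kb came next, each separated from its neighbour. PCDHAC2 at 30.2 per kb and PCDHAC1 at 27.1 per kb overlapped.

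**Figure D3:**
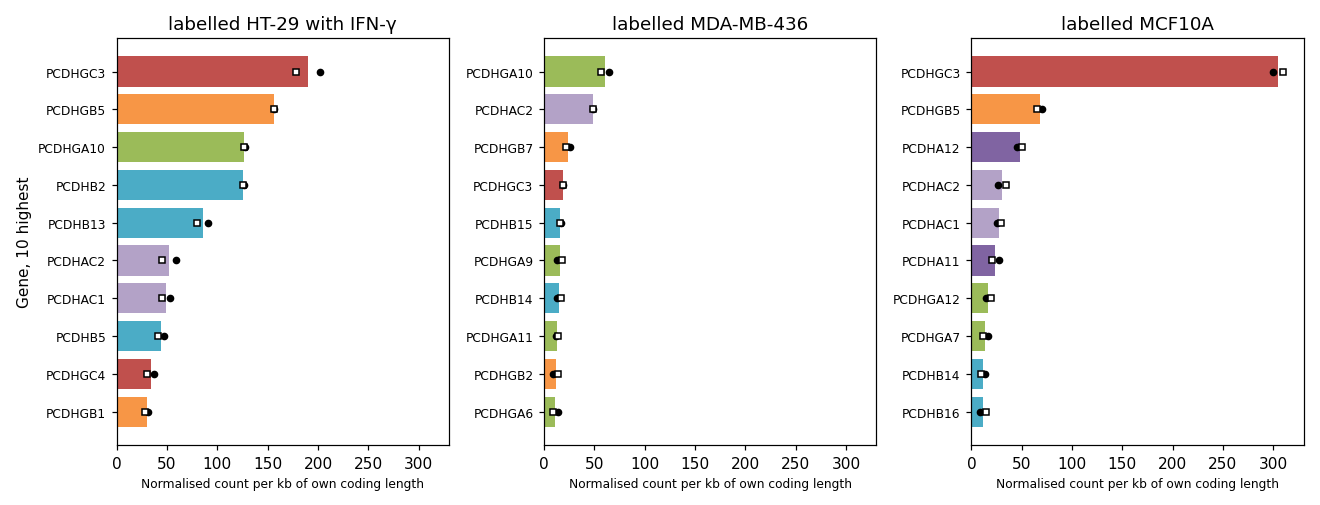
The 10 highest clustered protocadherins of each line, as normalised count per kb of own coding length. Bars are means of 2 libraries coloured by family, filled circles the 25M library and open squares the deeper one. PCDHGC3 leads in the HT-29-labelled libraries and in MCF10A, and PCDHGA10 in the MDA-MB-436-labelled ones.

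The families also took different shares of the sum. α genes other than the C-type held 3.27% and 3.34% of the sum in the HT-29-labelled libraries, 0.278% and 0.254% in the MDA-MB-436-labelled ones and 12.2% and 12.7% in MCF10A. β genes held 28.6% and 29.2% in the HT-29-labelled libraries, 18.1% and 17.8% in the MDA-MB-436-labelled ones and 7.06% and 6.4% in MCF10A. γA genes held 17.0% and 18.5% in the HT-29-labelled libraries, 40.6% and 41.4% in the MDA-MB-436-labelled ones, the largest share of any family there, and 8.16% and 7.48% in MCF10A. C-type γ genes held 21.5% and 19.9% in the HT-29-labelled libraries, 7.22% and 7.12% in the MDA-MB-436-labelled ones and 50.9% in each library of MCF10A. The 2 libraries of a line differed by less than 2 percentage points in each of these shares.

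**Figure D4:**
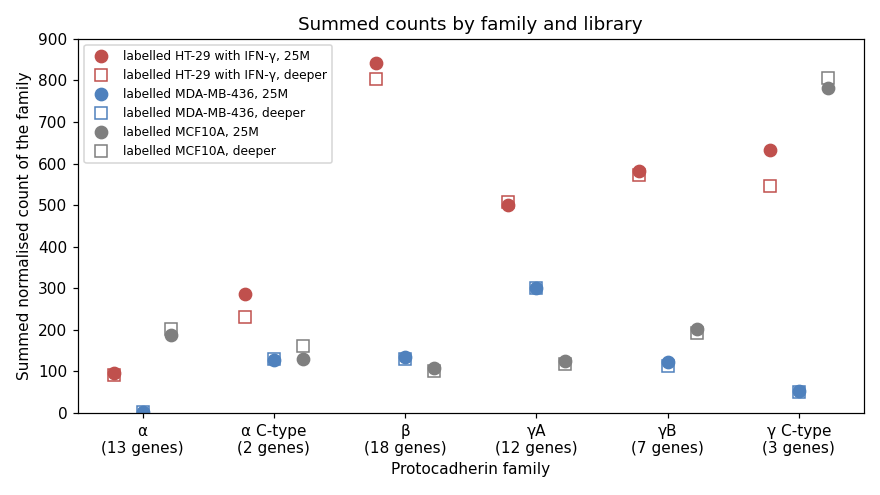
Summed normalised count of each protocadherin family in each library, on a linear axis, with filled circles for the 25M library and open squares for the deeper one. The HT-29-labelled libraries are highest for the C-type α, β, γA and γB families. The MDA-MB-436-labelled ones exceed MCF10A for the β and γA families, and MCF10A is highest for the α and C-type γ families.

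Lines were compared with limma on log2(normalised count + 1), for genes with at least 10 normalised counts in at least 2 libraries, with all 6 libraries in 1 fit. A gene was called at a Benjamini-Hochberg adjusted p below 0.05 over all 15638 genes tested and at least a 2-fold difference. Of the 55 members 31 passed the filter: 3 α, 2 C-type α, 10 β, 8 γA, 6 γB and 2 C-type γ. A member that passed only through the line in which it is high had to differ, so the counts below are descriptions. For low genes, log2 fold changes on this scale depend on the pseudocount and can lie above or below the ratio of pooled reads. Where a fold is given in words, it is the ratio of the reads pooled over each line with its 95% counting interval. For a line without reads the fold is a lower bound, computed as if the line had 3. Intervals and bounds cover counting error only.

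Against MCF10A, 10 members were higher and 11 lower in the MDA-MB-436-labelled libraries, and 10 were not called. Over all genes tested the background was 25.6% higher and 23.7% lower, 49.2% in all. All 3 α genes tested and PCDHAC1 were among the lower ones, while 5 of 8 γA genes were higher and 2 lower. The median log2 fold change of the members tested was 0.10, beside 0 for all genes. With no filter, which lets all 55 members in, 11 were higher and 13 lower, beside 22.8% and 20.0% of all genes. Both shares lie near the background.

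Against MCF10A, 19 members were higher and 4 lower in the HT-29-labelled libraries, beside a background of 28.4% higher and 18.1% lower, 46.5% in all. The 19 were 1 α, 7 β, 5 γA, 5 γB and 1 C-type γ gene, and the 4 were PCDHA11, PCDHA12, PCDHGA7 and PCDHGA12. The median log2 fold change was 2.13, beside 0.13 for all genes. With no filter 29 of 55 members were higher and 5 lower, beside 27.5% and 15.0% of all genes. The higher share of the members thus lay above the background with and without the filter.

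Against the MDA-MB-436-labelled libraries, 17 members were higher and 1, PCDHGA12, was lower in the HT-29-labelled ones, beside a background of 29.9% higher and 23.5% lower, 53.4% in all. All 3 α genes tested, 6 of 10 β genes and both C-type γ genes tested were higher, whereas 5 of 8 γA genes were not called. Among the β calls, that of PCDHB10 ended with no filter, TMM, thinning or a pseudocount of 0.25, and without either HT-29-labelled library. That of PCDHB11 ended with a pseudocount of 5, with DESeq2 and without the 25M HT-29-labelled library. The PCDHB16 call ended without either HT-29-labelled library. The median log2 fold change was 2.03, beside 0.09 for all genes. With no filter 25 were higher and 1 lower, beside 28.3% and 20.4% of all genes. Each pair of these comparisons shares a line, so they are not independent of each other.

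**Figure D5:**
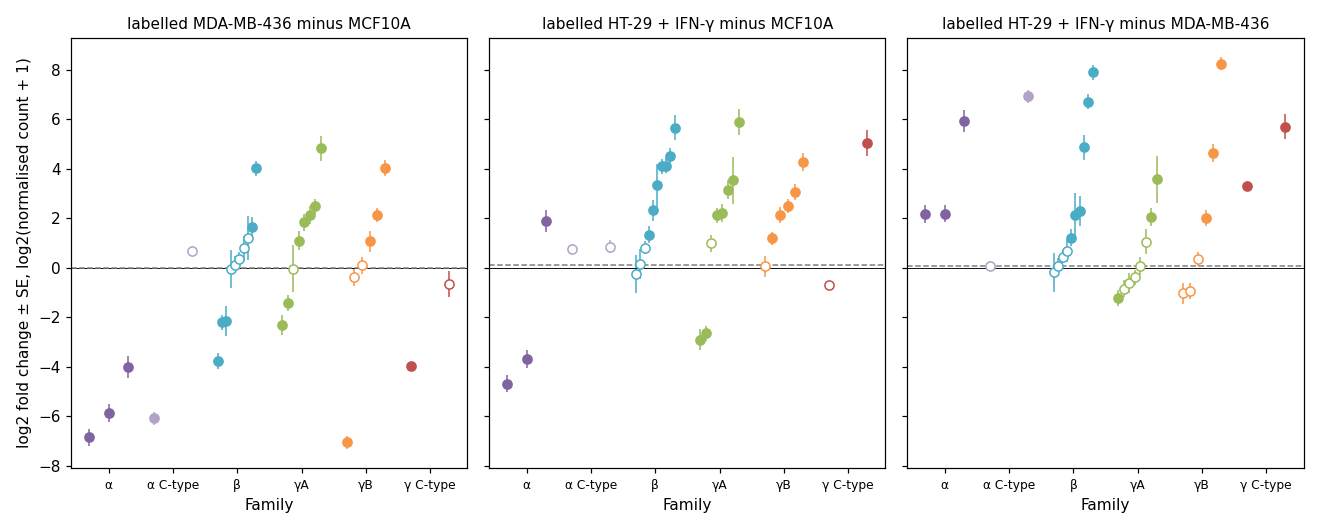
Log2 fold change with its standard error, on the log2(normalised count + 1) scale, of the 31 members tested, by family, in the 3 comparisons. Filled points were called and open points were not, and the dashed line is the median of all genes tested. Points lie on both sides of 0 in the left panel and mostly above it in the middle and right panels.

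Markers of neurons moved with the same libraries. Of 16 neuronal genes 13 were tested, and 11 were higher and 0 lower in the HT-29-labelled libraries against MCF10A, and likewise against the MDA-MB-436-labelled libraries. In these last libraries 3 were higher and 6 lower than in MCF10A. Over all genes tested, 28.4% and 29.9% were higher in the first 2 comparisons, and 25.6% higher and 23.7% lower in the last. In that last comparison, the higher call of GAP43 rested on 3 reads against 0. The lower calls of SYT1 and UCHL1 rested on 2 and 3 reads in the MDA-MB-436-labelled libraries. These calls ended under several alternatives, among them MCF10A averaged. The 16 summed to 43422 and 41813 in the HT-29-labelled libraries, 1692 and 1680 in the MDA-MB-436-labelled ones and 5826 and 5754 in MCF10A. A few genes made up most of these sums. L1CAM at 15623 and 15039 and UCHL1 at 11500 and 11324 led in the HT-29-labelled libraries. TUBB3 led in MCF10A at 4788 and 4691, beside 5028 and 4678 in the HT-29-labelled libraries. Genes at 0 reads numbered 1 in each HT-29-labelled library, 7 and 9 in the MDA-MB-436-labelled ones and 6 and 3 in MCF10A. CRMP1, a growth-cone protein, stood at 3960.2 and 3719 in the HT-29-labelled libraries, with 0 reads in the MDA-MB-436-labelled libraries and 105 and 112 in MCF10A. STMN2, a defining neuronal gene, had 0 reads in all 6 libraries, and RBFOX3, the neuronal nuclear antigen, reached at most 25.2. The part of these genes in the protocadherin counts was not tested.

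The α genes were nearly absent from the MDA-MB-436-labelled libraries, where 12 of 13 had 0 reads. PCDHA4 stood at 58.5 and 60.7 in the HT-29-labelled libraries, had 0 reads in the MDA-MB-436-labelled ones and stood at 9.36 and 24.1 in MCF10A. It was the leading α gene in the HT-29-labelled libraries, above MCF10A (log2 fold change 1.91, SE 0.44, limma adjusted p = 0.00425) and at least 42.3-fold higher than in the MDA-MB-436-labelled ones. Its log2 fold change against MCF10A in the HT-29-labelled libraries was 1.27 without the 25M MCF10A library and 2.55 without the deeper one. PCDHA12 stood at 4.5 and 2.74 in the HT-29-labelled libraries, had 0 reads in the MDA-MB-436-labelled ones and stood at 109 and 120.3 in MCF10A. PCDHA11 stood at 4.5 and 2.74 in the HT-29-labelled libraries, had 0 reads in the MDA-MB-436-labelled ones and stood at 65.5 and 50.6 in MCF10A. Among the α genes, the neighbours PCDHA12 and PCDHA11 thus led in MCF10A, where PCDHA4 was counted too, and PCDHA4 led in the HT-29-labelled libraries.

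Both differences from MCF10A exceeded the spread between libraries. PCDHA12 was 36.7-fold lower (95% counting interval 18.4 to 85.9) there than in MCF10A (log2 fold change -4.67, SE 0.34, limma adjusted p = 4.72e-06), and PCDHA11 was 16.7-fold lower (95% counting interval 8.26 to 39.5, log2 fold change -3.69, SE 0.37, limma adjusted p = 3.16e-05). In the MDA-MB-436-labelled libraries, PCDHA12 was at least 82.9-fold lower and PCDHA11 at least 37.7-fold lower than in MCF10A. The difference of these genes between HT-29-labelled libraries and MDA-MB-436 rested on 8 reads against 0 for each gene, and both calls ended with a pseudocount of 5, that of PCDHA12 also with libraries thinned to equal depth. Of the other 10 α genes none passed the filter. PCDHA1 reached 7.5 and 9.3 and PCDHA7 13.5 and 4.92 in the HT-29-labelled libraries, and PCDHA10 was the only α gene with reads in the MDA-MB-436-labelled ones, at 2.06 and 1.85.

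The C-type α genes behaved unlike each other. PCDHAC1 stood at 131 and 111 in the HT-29-labelled libraries, had 0 reads in the MDA-MB-436-labelled ones and stood at 61.8 and 71.2 in MCF10A. PCDHAC2, the last variable exon before the constant exons, stood at 156 and 119 in the HT-29-labelled libraries, 128 and 130.0 in the MDA-MB-436-labelled ones and 69.3 and 90.8 in MCF10A. PCDHAC1 was at least 48.7-fold lower in the MDA-MB-436-labelled libraries than in MCF10A and at least 81.8-fold higher in the HT-29-labelled ones than in the MDA-MB-436-labelled ones. PCDHAC2 was within 2-fold in every comparison. Its level in the HT-29-labelled libraries overlapped with that in the MDA-MB-436-labelled ones (log2 fold change 0.08, SE 0.19, limma adjusted p = 0.69), and it lay above MCF10A in the MDA-MB-436-labelled libraries (log2 fold change 0.69, SE 0.19, limma adjusted p = 0.00896) and in the HT-29-labelled ones (log2 fold change 0.77, SE 0.19, limma adjusted p = 0.00515). Under the 2-fold rule neither of these was called.

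The β genes, each a single exon, summed to 842 and 803 in the HT-29-labelled libraries, 134 and 129 in the MDA-MB-436-labelled ones and 109 and 101 in MCF10A. PCDHB2 stood at 302 and 301 in the HT-29-labelled libraries, 0 and 0.616 in the MDA-MB-436-labelled ones and 15 and 17.7 in MCF10A. PCDHB13 stood at 218 and 190.4 in the HT-29-labelled libraries, 8.23 and 4.31 in the MDA-MB-436-labelled ones and 5.62 and 1.47 in MCF10A. PCDHB5 stood at 111 and 97.9 in the HT-29-labelled libraries, had 0 reads in the MDA-MB-436-labelled ones and stood at 3.75 and 3.44 in MCF10A. In all 3 the HT-29-labelled libraries were far above both other lines. Against MCF10A, PCDHB2 was 17.6-fold higher (95% counting interval 13 to 24.4, log2 fold change 4.13, SE 0.31, limma adjusted p = 5.70e-06), PCDHB13 84.7-fold higher (95% counting interval 38.6 to 232, log2 fold change 5.66, SE 0.50, limma adjusted p = 1.40e-05) and PCDHB5 29-fold higher (95% counting interval 15 to 64.1, log2 fold change 4.52, SE 0.32, limma adjusted p = 3.40e-06). The value of PCDHB13 rested on 6 reads in MCF10A, and its log2 fold change was 6.37 without the 25M MCF10A library and 4.95 without the deeper one. With a single read of PCDHB2 in the MDA-MB-436-labelled libraries, the HT-29-labelled ones were 635-fold higher (95% counting interval 114 to 25119).

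PCDHB15 followed another pattern. It stood at 37.5 and 43.2 in the HT-29-labelled libraries, 39.1 and 37 in the MDA-MB-436-labelled ones and 1.87 and 0.982 in MCF10A. Both carcinoma lines were above MCF10A, where the gene had 3 reads in all, and overlapped each other (log2 fold change 0.08, SE 0.30, limma adjusted p = 0.81). It was 32.1-fold higher (95% counting interval 10.6 to 159) in the MDA-MB-436-labelled libraries (log2 fold change 4.03, SE 0.30, limma adjusted p = 4.75e-06) and 35.7-fold higher (95% counting interval 11.9 to 176) in the HT-29-labelled ones (log2 fold change 4.11, SE 0.30, limma adjusted p = 4.65e-06). PCDHB14 was the most even of the abundant β genes, at 55.5 and 42.7 in the HT-29-labelled libraries, 30.9 and 40.6 in the MDA-MB-436-labelled ones and 31.8 and 23.1 in MCF10A. It was called in no comparison. Against MCF10A in the HT-29-labelled libraries (log2 fold change 0.82, SE 0.27, limma adjusted p = 0.0214) it passed the 2-fold rule with scaling by library totals, without the 25M MCF10A library (log2 fold change 1.05) and without the deeper HT-29-labelled one (log2 fold change 1.01). PCDHB10, PCDHB11 and PCDHB12 were also higher in the HT-29-labelled libraries than in MCF10A, with log2 fold changes from 1.33 to 3.33. The PCDHB10 call ended without the 25M MCF10A library (log2 fold change 2.05) and without either HT-29-labelled library, and the PCDHB11 call with a pseudocount of 5 and with DESeq2. PCDHB12 was higher in the MDA-MB-436-labelled libraries than in MCF10A (log2 fold change 1.63, SE 0.43, limma adjusted p = 0.00831), a call that ended without the deeper MCF10A library (log2 fold change 1.40) or the 25M MDA-MB-436-labelled one (log2 fold change 1.15). PCDHB16 was lower there (log2 fold change -2.15, SE 0.60, limma adjusted p = 0.0108), with log2 fold changes of -1.19 without the 25M MDA-MB-436-labelled library and -3.10 without the deeper one, and the call ended without the deeper MCF10A library (log2 fold change -1.74) and with MCF10A averaged. The 8 β genes that did not pass the filter, both pseudogenes among them, reached at most 14.4 in any library.

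The γA genes summed to 501 and 508 in the HT-29-labelled libraries, 301 and 301 in the MDA-MB-436-labelled ones and 125 and 118 in MCF10A. PCDHGA10 stood at 324 and 321 in the HT-29-labelled libraries, 165 and 144 in the MDA-MB-436-labelled ones and 1.87 and 9.33 in MCF10A. Against MCF10A it was 19.1-fold higher (95% counting interval 12.1 to 31.7) in the MDA-MB-436-labelled libraries (log2 fold change 4.83, SE 0.51, limma adjusted p = 4.93e-05) and 41.4-fold higher (95% counting interval 26.6 to 68.1) in the HT-29-labelled ones (log2 fold change 5.89, SE 0.51, limma adjusted p = 1.55e-05). The size of both differences rested on the MCF10A libraries. Without the 25M one the log2 fold changes were 3.91 for the MDA-MB-436-labelled libraries and 4.97 for the HT-29-labelled ones, and without the deeper one they were 5.75 and 6.82 in the same order. Between the carcinoma lines it was 2.17-fold higher (95% counting interval 1.9 to 2.48) in the HT-29-labelled libraries, and this was not called (log2 fold change 1.06, SE 0.51, limma adjusted p = 0.0853). Its error takes in the spread of MCF10A, whose libraries stood at 1.87 and 9.33. With only the 2 lines compared in the fit, an alternative chosen after seeing the data, the limma adjusted p was 2.29e-04, and edgeR's quasi-likelihood test with Benjamini-Hochberg adjustment gave 2.59e-24. Over all alternatives the adjusted p lay between 2.59e-24 and 0.258.

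Other γA genes were lower in the carcinoma lines. PCDHGA7 stood at 3.00 and 4.38 in the HT-29-labelled libraries, 4.12 and 8.62 in the MDA-MB-436-labelled ones and 39.3 and 28.5 in MCF10A. PCDHGA12 stood at 4.5 and 7.11 in the HT-29-labelled libraries, 14.4 and 14.8 in the MDA-MB-436-labelled ones and 35.6 and 46.6 in MCF10A. MCF10A was highest for both. PCDHGA7 was lower in the MDA-MB-436-labelled libraries (log2 fold change -2.30, SE 0.41, limma adjusted p = 0.000985) and in the HT-29-labelled ones (log2 fold change -2.89, SE 0.41, limma adjusted p = 0.000258). PCDHGA12 was lower in the MDA-MB-436-labelled libraries (log2 fold change -1.42, SE 0.31, limma adjusted p = 0.00324) and in the HT-29-labelled ones (log2 fold change -2.64, SE 0.31, limma adjusted p = 8.95e-05). PCDHGA12 was also the only member called lower in the HT-29-labelled libraries than in the MDA-MB-436-labelled ones (log2 fold change -1.22, SE 0.31, limma adjusted p = 0.00668). This call rested on 16 reads against 31, and it ended without the 25M HT-29-labelled library (log2 fold change -0.94), with a pseudocount of 5, scaling by library totals, DESeq2 or thinning, over which the adjusted p lay between 0.00295 and 0.253. PCDHGA9 stood at 46.5 and 36.1 in the HT-29-labelled libraries, 32.9 and 45 in the MDA-MB-436-labelled ones and 5.62 and 11.3 in MCF10A. It was higher than in MCF10A in the MDA-MB-436-labelled libraries (log2 fold change 2.13, SE 0.36, limma adjusted p = 0.000718) and in the HT-29-labelled ones (log2 fold change 2.22, SE 0.36, limma adjusted p = 0.000579). PCDHGA11 was higher in both carcinoma lines too, and PCDHGA6 in the MDA-MB-436-labelled libraries. PCDHGA1 was higher in the HT-29-labelled libraries and, by a narrow margin, in the MDA-MB-436-labelled ones (log2 fold change 1.11, SE 0.38, limma adjusted p = 0.0266). That second call ended with only the 2 lines in the fit (limma adjusted p = 0.0631), a pseudocount of 5, DESeq2 or thinning, and without the deeper MCF10A library (log2 fold change 0.64), the deeper MDA-MB-436-labelled one (log2 fold change 0.95) or either HT-29-labelled library. PCDHGA4 was higher in the HT-29-labelled libraries than in MCF10A (log2 fold change 3.54, SE 0.95, limma adjusted p = 0.00857), and this call ended without the deeper MCF10A library (log2 fold change 2.91), without either HT-29-labelled library, with MCF10A averaged and with a pseudocount of 0.25.

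Among the γB genes, PCDHGB5 had the largest log2 fold change of the members tested. It stood at 384 and 384 in the HT-29-labelled libraries, 0 and 0.616 in the MDA-MB-436-labelled ones and 172 and 161 in MCF10A. A single read was counted in the MDA-MB-436-labelled libraries, against 420 in MCF10A, which made it 345-fold lower (95% counting interval 61.5 to 13643, log2 fold change -7.04, SE 0.26, limma adjusted p = 6.54e-08). Against the same libraries the HT-29-labelled ones were 810.2-fold higher (95% counting interval 145 to 32034, log2 fold change 8.24, SE 0.26, limma adjusted p = 2.60e-08). Against MCF10A the HT-29-labelled libraries were 2.35-fold higher (95% counting interval 2.09 to 2.64, log2 fold change 1.20, SE 0.26, limma adjusted p = 0.00296), and this call ended with a pseudocount of 0.25 (limma adjusted p = 0.0833) and with libraries thinned to equal depth (limma adjusted p = 0.0638), with a range over all alternatives of 7.74e-33 to 0.0833.

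PCDHGB7 stood at 33 and 25.7 in the HT-29-labelled libraries, 61.8 and 52.4 in the MDA-MB-436-labelled ones and 1.87 and 3.44 in MCF10A. It was the γB gene most used in the MDA-MB-436-labelled libraries, above MCF10A there (log2 fold change 4.02, SE 0.32, limma adjusted p = 6.83e-06) and in the HT-29-labelled ones (log2 fold change 3.08, SE 0.32, limma adjusted p = 3.88e-05). Between the carcinoma lines it was under 2-fold apart and not called (log2 fold change -0.94, SE 0.32, limma adjusted p = 0.0238), and 2-fold apart without the 25M HT-29-labelled library (log2 fold change -1.11) or the deeper MDA-MB-436-labelled one (log2 fold change -1.06). PCDHGB1 stood at 75 and 68.9 in the HT-29-labelled libraries, 2.06 and 1.85 in the MDA-MB-436-labelled ones and 1.87 and 3.93 in MCF10A. It had 176 reads in the HT-29-labelled libraries, 4 in the MDA-MB-436-labelled ones and 9 in MCF10A, and was 20.2-fold higher (95% counting interval 10.4 to 44.8) in the HT-29-labelled libraries than in MCF10A (log2 fold change 4.28, SE 0.36, limma adjusted p = 1.14e-05). PCDHGB2 was higher in both carcinoma lines than in MCF10A, and PCDHGB6 in the HT-29-labelled libraries. PCDHGB3 was called higher in the MDA-MB-436-labelled libraries than in MCF10A by a narrow margin (log2 fold change 1.08, SE 0.42, limma adjusted p = 0.0435), on 38 against 19 reads. The call ended with only the 2 lines in the fit (limma adjusted p = 0.0785), with either other pseudocount, no filter, library totals, TMM, DESeq2, MCF10A averaged or thinning, and without the deeper MCF10A library (log2 fold change 0.57), the 25M MDA-MB-436-labelled one (log2 fold change 0.79) or either HT-29-labelled library. The stretch around the only CGCT available in PCDHGB7 matched other γB stretches at 50.0% of positions. Bases before that CGCT resemble those around the PCDHGB6 core, with CGCC in place of CGCT. The 50.0% may therefore not describe the element shared by the family.

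The C-type γ genes held the highest member of MCF10A and of the HT-29-labelled libraries. PCDHGC3, a C-type gene known to be expressed widely outside neurons, stood at 524 and 462 in the HT-29-labelled libraries, 49.4 and 49.3 in the MDA-MB-436-labelled ones and 777 and 801 in MCF10A. The lines did not overlap. It was 16.1-fold lower (95% counting interval 13.3 to 19.9) in the MDA-MB-436-labelled libraries than in MCF10A (log2 fold change -3.97, SE 0.09, limma adjusted p = 4.91e-09) and 9.7-fold higher (95% counting interval 7.93 to 12) in the HT-29-labelled ones than in the MDA-MB-436-labelled ones (log2 fold change 3.29, SE 0.09, limma adjusted p = 1.29e-08). Against MCF10A the HT-29-labelled libraries were lower by less than 2-fold, so no call was made (log2 fold change -0.68, SE 0.09, limma adjusted p = 0.000189). PCDHGC4 stood at 97.5 and 77.7 in the HT-29-labelled libraries, 0 and 1.85 in the MDA-MB-436-labelled ones and 1.87 and 1.47 in MCF10A. It had 207 reads in the HT-29-labelled libraries, 3 in the MDA-MB-436-labelled ones and 4 in MCF10A, and was 53.3-fold higher (95% counting interval 20.5 to 198) in the HT-29-labelled libraries than in MCF10A (log2 fold change 5.05, SE 0.52, limma adjusted p = 3.56e-05). PCDHGC5, the last gene of the cluster, did not pass the filter and reached 10.5 and 7.11 in the HT-29-labelled libraries.

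Protocadherin genes outside the clusters differed between the same lines. Of 12 non-clustered protocadherins 7 were tested. In the MDA-MB-436-labelled libraries 0 were higher and 5 lower than in MCF10A. In the HT-29-labelled ones 2 were higher and 3 lower than in MCF10A, and 5 higher and 1 lower than in the MDA-MB-436-labelled ones. Over all genes tested, 49.2%, 46.5% and 53.4% were called in either direction in the same order. Of the last comparison, the PCDH12 call rested on 35 against 6 reads. It ended under several alternatives, as did the lower call of PCDH18 against MCF10A, among them MCF10A averaged and thinning. The higher call of PCDH20 in the last comparison ended without the 25M HT-29-labelled library. PCDH1 was the abundant one, at 441 and 437 in the HT-29-labelled libraries, 7298 and 7444 in the MDA-MB-436-labelled ones and 4584 and 4572 in MCF10A, and was lower in the HT-29-labelled libraries than in MCF10A (log2 fold change -3.38, SE 0.03, limma adjusted p = 1.45e-10). PCDH7 stood at 1025 and 1046 in the HT-29-labelled libraries, 28.8 and 30.2 in the MDA-MB-436-labelled ones and 236 and 216 in MCF10A, and was highest in the HT-29-labelled libraries (log2 fold change 2.19, SE 0.10, limma adjusted p = 2.71e-07). PCDH9 had reads in MCF10A alone, at 154 and 167. PCDH19 stood at 126 and 125 in the HT-29-labelled libraries, with 0 reads in the MDA-MB-436-labelled ones and 5.62 and 2.95 in MCF10A.

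The list of 21 chromatin regulators of the clusters was tested in full. In the MDA-MB-436-labelled libraries 5 were higher and 3 lower than in MCF10A, in the HT-29-labelled ones 4 were higher and 0 lower than in MCF10A, and 4 were higher and 4 lower than in the MDA-MB-436-labelled ones. Over all genes tested, 49.2%, 46.5% and 53.4% were called in either direction in these comparisons. The median log2 fold changes of the list were 0.20, 0.22 and -0.02. SMCHD1, a chromatin protein known to repress clustered protocadherin genes, stood at 2239.6 and 2398 in the HT-29-labelled libraries, 14599.9 and 14428 in the MDA-MB-436-labelled ones and 2477 and 2639 in MCF10A. It was higher in the MDA-MB-436-labelled libraries than in MCF10A (log2 fold change 2.50, SE 0.04, limma adjusted p = 1.13e-09), in the line with the lowest summed protocadherin count. CTCF stood at 2217 and 2084 in the HT-29-labelled libraries, 4531 and 4287 in the MDA-MB-436-labelled ones and 2529.8 and 2589 in MCF10A, close to 2-fold apart between the HT-29-labelled libraries and the MDA-MB-436-labelled ones (log2 fold change -1.04, SE 0.04, limma adjusted p = 1.14e-07) and under 2-fold with scaling by library totals (log2 fold change -0.71), without the deeper HT-29-labelled library (log2 fold change -0.99) and without the 25M MDA-MB-436-labelled one (log2 fold change -0.996). DNMT1, the maintenance DNA methyltransferase, was lower in the MDA-MB-436-labelled libraries than in MCF10A (log2 fold change -1.69, SE 0.03, limma adjusted p = 7.61e-10). DNMT3B, a de novo DNA methyltransferase, was higher in the HT-29-labelled libraries than in MCF10A (log2 fold change 2.16, SE 0.11, limma adjusted p = 4.97e-07). TET1, which oxidises methylated cytosine, stood at 165 and 171 in the HT-29-labelled libraries, 0 and 2.46 in the MDA-MB-436-labelled ones and 28.1 and 42.2 in MCF10A. It was higher in the HT-29-labelled libraries than in MCF10A (log2 fold change 2.25, SE 0.55, limma adjusted p = 0.00528), and this call ended without the 25M MCF10A library (limma adjusted p = 0.0603), without the 25M HT-29-labelled library (limma adjusted p = 0.0526), without the deeper one (limma adjusted p = 0.056) and with a pseudocount of 0.25 (limma adjusted p = 0.0809). The part of these regulators in the protocadherin counts was not tested.

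Of 12 partners and processing enzymes, all tested, 4 were higher and 1 lower in the MDA-MB-436-labelled libraries than in MCF10A. In the HT-29-labelled libraries 4 were higher and 1 lower than in MCF10A, and 2 were higher and 4 lower than in the MDA-MB-436-labelled ones. The share of all genes called in either direction was 49.2%, 46.5% and 53.4% in the same order. RET, a receptor tyrosine kinase that binds clustered protocadherins, stood at 329 and 288 in the HT-29-labelled libraries, with 0 reads in the MDA-MB-436-labelled ones and 1 in MCF10A. PTK2 and PTK2B, kinases that bind the constant cytoplasmic part, went opposite ways in the MDA-MB-436-labelled libraries, PTK2 higher (log2 fold change 1.03, SE 0.02, limma adjusted p = 2.98e-09), though under 2-fold with TMM (0.93) and edgeR (0.96), and PTK2B lower (log2 fold change -1.69, SE 0.07, limma adjusted p = 1.19e-07) than in MCF10A. FYN, a Src-family kinase, was higher in the MDA-MB-436-labelled libraries than in MCF10A (log2 fold change 4.25, SE 0.10, limma adjusted p = 6.95e-09) and in the HT-29-labelled ones (log2 fold change 2.69, SE 0.10, limma adjusted p = 1.14e-07). ADAM10, the protease that sheds protocadherin ectodomains, stood at 3797 and 3945 in the HT-29-labelled libraries, 4173 and 4042 in the MDA-MB-436-labelled ones and 3320.1 and 3474 in MCF10A, under 2-fold apart in each comparison.

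Genes that lie beside and between the clusters were compared in the same way. Of 19 such genes 18 were tested. In the MDA-MB-436-labelled libraries 0 were higher and 4 lower than in MCF10A. In the HT-29-labelled ones 0 were higher and 2 lower than in MCF10A, and 5 higher and 0 lower than in the MDA-MB-436-labelled ones. The share of all genes called in either direction was 49.2%, 46.5% and 53.4% in the same order. TAF7, a general transcription factor gene that lies between the β and γ clusters, stood at 3829.7 and 4081 in the HT-29-labelled libraries, 4741 and 4555 in the MDA-MB-436-labelled ones and 2457 and 2659.5 in MCF10A, within 2-fold throughout. Its neighbour SLC25A2, a mitochondrial carrier, had 0 reads in all 6 libraries. ARAP3 stood at 158 and 127 in the HT-29-labelled libraries, 12.4 and 14.2 in the MDA-MB-436-labelled ones and 3511 and 3452 in MCF10A, lower in both carcinoma lines. DIAPH1, an actin nucleator beside the γ cluster, was lower in the HT-29-labelled libraries than in MCF10A (log2 fold change -1.06, SE 0.02, limma adjusted p = 5.53e-09), and under 2-fold with scaling by library totals (log2 fold change -0.75). CD14, RNF14 and NDUFA2 were lower in the MDA-MB-436-labelled libraries than in MCF10A, with log2 fold changes from -2.56 to -1.60.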

How the data were processed

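Total RNA was sequenced as 50-base pairs on a HiSeq instrument, per the labels. The submitters' processing notes name FastQC, STAR 2.2.0, HTSeq and hg19 without their settings, and the gene annotation is not given in the sources used here. Per the file headers, the deposited tables give normalised counts and RPKM for 23368 symbols. The deposited normalised count is a signal from which whole reads could be recovered: within a tolerance of 0.001, 100% of values were multiples of the value of 1 read. Deposited RPKM did not match its symbol in 3544 rows (15.2%), 0 of them members, and was used for this check alone. Rows whose symbols read as dates (28) were left out.

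limma (3.58.1, in R 4.3.3, trend and robust) was fitted to log2(normalised count + 1) with cell line as the only term and 3 residual degrees of freedom, and was tested on simulated data. The simulation changed only well-counted genes, so it does not bear on the calls of members with few reads. Pooled reads gave folds. Alternatives were edgeR 4.0.16 and DESeq2 1.42.0 on recovered reads, other pseudocounts, filters, scalings and thinning, a depth block, and each library left out. For the deeper MCF10A library the title gives 100 M reads and the sample type 50. The median chi-square of paired libraries over genes was 0.730 for HT-29-labelled libraries, 0.686 for the MDA-MB-436-labelled ones and 0.553 for MCF10A, where sampling alone gives 0.455, so no pair was taken as 1 library. Promoters are from RefSeq. Members given for every library are the most abundant of each family, the most changed in each comparison and PCDHGB5, PCDHGA10 and PCDHB15. Most genes named from other lists are among the 4 called genes of their list with the smallest adjusted p in a comparison. Outside this rule, CTCF, ADAM10, TAF7, SLC25A2, RBFOX3, STMN2 and KRT14 were chosen after their values were seen. GAP43 and SYT1, also outside it, were named for the few reads behind their calls. The members and lists were chosen with earlier results of these data known.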

Additional observations from a re-analysis of the deposited data

How the results depend on the processing

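Counts of members called kept within 1.5 times of their value under most alternatives. A filter of 100 normalised counts left 1 higher and 5 lower in the MDA-MB-436-labelled libraries against MCF10A, 4 and 1 in the HT-29-labelled ones against MCF10A and 6 and 0 in the HT-29-labelled ones against MDA-MB-436, because few members reach it. With no filter 29 were higher in the HT-29-labelled libraries against MCF10A. The 1 member lower in the HT-29-labelled libraries than in the MDA-MB-436-labelled ones became 0 with a pseudocount of 5, scaling by library totals, DESeq2 or thinning, 2 with TMM, MCF10A averaged, only the 2 lines compared (chosen after seeing the data) or the adjusted p alone, and 3 with edgeR. Scaling by library totals moved the median of all genes to 0.45 in the HT-29-labelled libraries against MCF10A and to 0.43 against the MDA-MB-436-labelled ones.

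With the replicate block by labelled depth, members higher and lower numbered 10 and 11, 19 and 4, and 17 and 2 in the 3 comparisons. The shared depth label is not a pairing of cultures.

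Leaving out each library in turn gave 8 to 11 higher and 10 to 13 lower in the MDA-MB-436-labelled libraries against MCF10A, 18 to 20 and 4 in the HT-29-labelled ones against MCF10A, and 13 to 18 and 1 to 3 in the HT-29-labelled ones against MDA-MB-436. The last count was 2 without either MCF10A library or the 25M MDA-MB-436-labelled one, and 3 without the deeper MDA-MB-436-labelled one. An arm left with 1 library was assumed to vary like the others.

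Of the lists, non-clustered protocadherins gave 3 calls in the MDA-MB-436-labelled libraries against MCF10A with the filter of 100, 8 in the HT-29-labelled ones against MCF10A with no filter, and 10 with no filter and 3 with the filter of 100 in the HT-29-labelled ones against MDA-MB-436. Partners gave 3 in the MDA-MB-436-labelled libraries against MCF10A with TMM and with edgeR. Chromatin regulators gave 7 and flanking genes 1 in the HT-29-labelled libraries against MCF10A with scaling by library totals.

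Single members were followed here only if they belonged to those given for every library, chosen as described above. Calls outside this set ended as well, among them those of PCDHB10, PCDHB11, PCDHB12, PCDHB16, PCDHGA1, PCDHGA4 and PCDHGB3. Over 1050 results for the set, 1004 kept their call, 25 gained one, 11 lost one and 10 changed sign, none of these 10 called to begin with. Of these, PCDHGC4 became 0.0071 with thinning in the MDA-MB-436-labelled libraries against MCF10A. In the HT-29-labelled libraries against MDA-MB-436, PCDHAC2 became -0.025 and PCDHGA9 -0.14 with edgeR, and PCDHGA9 -0.060 with thinning. Leaving out each library gave log2 fold changes of -0.74 to 0.039 for PCDHGB1 and -1.41 to 0.10 for PCDHGC4 in the MDA-MB-436-labelled libraries against MCF10A. In the HT-29-labelled libraries against MDA-MB-436 it gave -0.11 to 0.27 for PCDHAC2, -0.019 to 0.18 for PCDHB15 and -0.13 to 0.31 for PCDHGA9. The cause was not tested.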

Other observations

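Pseudogenes of the clusters whose symbols end in P were not counted among the members. PCDHGB8P stood at 7.5 and 3.83 in the HT-29-labelled libraries, 6.18 and 9.85 in the MDA-MB-436-labelled ones and 1.87 and 0.491 in MCF10A. PCDHB19P had 3 reads in the HT-29-labelled libraries, 3 in the MDA-MB-436-labelled ones and 1 in MCF10A.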
